A study of Mus musculus with 48 samples.

Results

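Epididymal white adipose tissue (eWAT), a fat depot of the abdomen beside the epididymis, was compared between 2 housing temperatures in wild-type mice. The libraries were chosen by their labels: all 8 titled hepAGT+/+ epididymal fat, of 48 libraries in the series, 4 from thermoneutral housing (TN, 30 °C) and 4 from room temperature (RT, 20 to 22 °C). All mice were male littermates on a Western diet (milk fat 21%, cholesterol 0.2%) for 12 weeks. Beside these hepAGT+/+ mice (WT), 8 eWAT libraries of hepAGT-/- mice (KO), in which angiotensinogen (Agt) is deleted in hepatocytes, and 8 libraries of WT brown adipose tissue (BAT) were used for comparison, on the same diet and at the same temperatures. The Cre driver, the strain, the age of the mice and whether WT littermates carried any modified allele were not given in the sources used here. The labels number the libraries as biological replicates, taken here as mouse numbers, and do not say how they fall into litters or cages.

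Mice at room temperature burn fuel to stay warm, largely in brown fat under sympathetic nerve control. At thermoneutrality that demand falls away. White fat stores triglyceride in adipocytes, and around them lie macrophages, lymphocytes, fibroblasts and vessels. In obese mice, macrophages gather in this depot around dying adipocytes, and the fibroblasts lay down collagen. Bulk RNA cannot tell fewer cells of a type from less RNA per cell, and this holds for each gene group below.

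Libraries are named by temperature and mouse number: RT 12, 13, 15 and 18, and TN 6, 7, 8 and 23. Values for single libraries are given in that order throughout, as CPM, a gene's count per 1000000 counts of the library, after TMM scaling, which evens out library composition. Sums over markers use plain library totals. A log2 change is TN minus RT, and a gene was called where the p-value of edgeR's test, adjusted over all genes tested, was under 0.05. Where such a call was not reached, counts of genes past an unadjusted threshold of 0.05 are given, for most lists with the range of the count when each library is left out in turn. Total counts ran from 33787582 to 36667439 at RT and from 28656921 to 36119574 at TN. The share of counts on mitochondrial genes was 4.97% ± 0.52 (SD, n = 4) at RT and 3.60% ± 0.53 (n = 4) at TN (two-sided exact permutation p = 0.0571, adjusted over 3 measures 0.0857). The 10 most abundant genes held 18.5% ± 0.55 of counts at RT and 17.5% ± 0.33 at TN (exact permutation p = 0.0286, the smallest that 4 against 4 allows, adjusted 0.0857).

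One library went against its tissue label. The library labelled TN 8 held 0 CPM of Wt1, a transcription factor of visceral fat and its mesothelium, where the other 15 eWAT libraries held 2.89 to 12.0 CPM. Upk3b, a mesothelial gene, was at 0.448 CPM against 7.71 to 97.3 CPM, and Tcf21, a marker of visceral fat progenitors, was at 0.112 CPM against 2.18 to 7.26 CPM. The summed level of 11 mesothelial markers was 17.4 CPM in it and 37.6 to 288 CPM in the others. Most of its sum came from the keratin genes Krt8 and Krt18, which were not low in it. Krt8 was at 9.65 CPM against 1.14 to 29.8 CPM, and Krt18 at 5.23 CPM against 0.3 to 20.6 CPM. Krt19 also lay within the range of the others, and every remaining marker of the list lay below it. Depot and positional genes that the others lacked were present. Tbx15 stood at 17.0 CPM, Shox2 at 17.7 CPM and Hoxc10 at 22.9 CPM, against at most 0.751, 0.392 and 1.95 CPM elsewhere. All 9 adrenal genes examined were found in it, with a summed level of 158 CPM against 1.67 to 5.6 CPM in the others; the steroid enzyme genes Hsd3b1 and Akr1c18 stood at 23.9 and 33.0 CPM. These depot and adrenal genes were chosen after their values were seen. Its mature adipocyte marker sum, 29934 CPM, lay among the other 7 WT libraries (26522 to 31219.6 CPM).

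A second library carried RNA of the neighbouring organ. RT 18 held 1106 CPM over 30 epididymis markers, led by Crisp1 at 741 CPM, and the other 7 WT libraries held 0.623 to 18.5 CPM. The major urinary protein genes, near-identical copies among which reads cannot be assigned with certainty, summed to 4283 CPM in RT 18 and 1610.4 CPM in RT 13. The other 6 WT libraries held at most 177 CPM. High sums were not particular to RT 18. RT 13 held 11.6 CPM of epididymis markers, and TN 7, with 18.5 CPM of those markers, held 2.72 CPM of major urinary protein genes. The KO RT libraries held 50.7 to 3951 CPM of major urinary protein genes and at most 19.7 CPM of epididymis markers. The KO TN libraries held 4.70 to 116 CPM of major urinary protein genes. Mean sums were thus higher at RT in both genotypes, 1494 against 113 CPM in WT and 1375 against 52.9 CPM in KO. The source of these reads was not tested. Values without the library labelled TN 8 and without RT 18 are therefore given beside the results they move most.

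**Figure D1:**
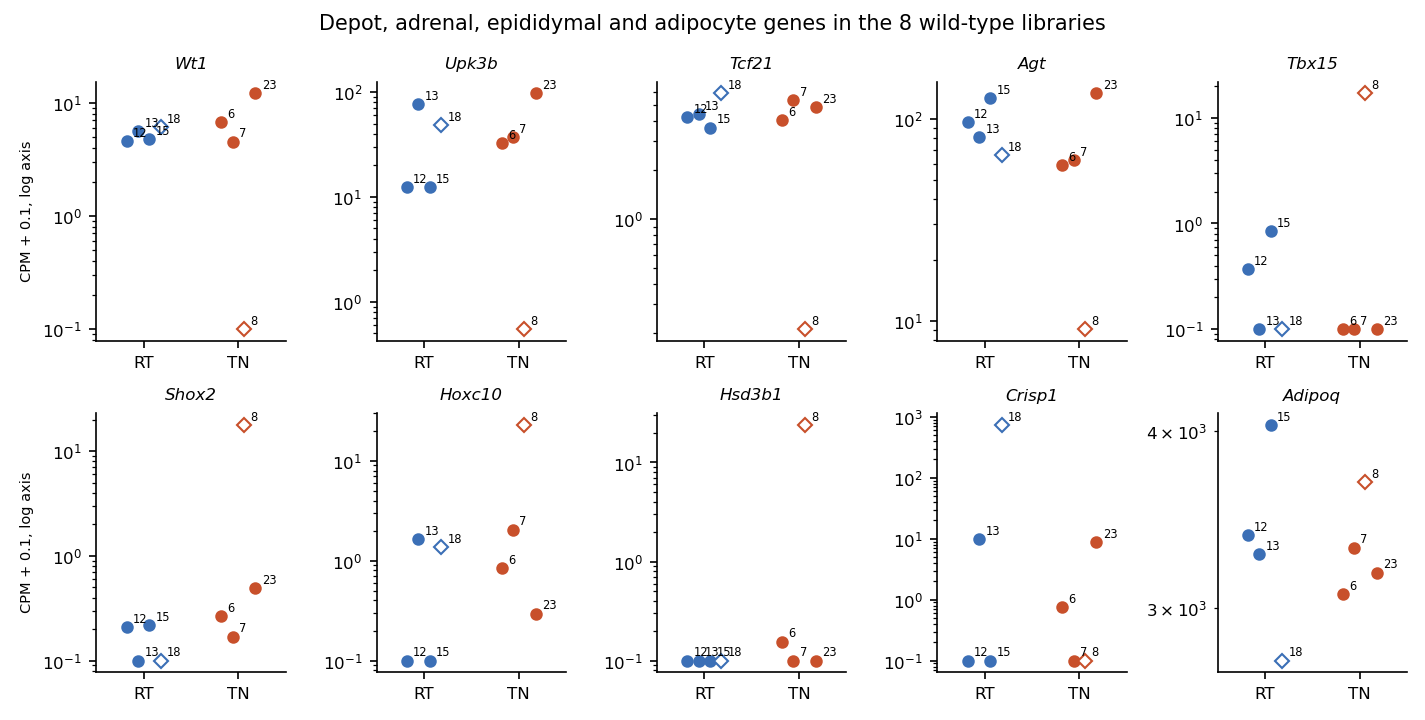
Level of 10 genes in each of the 8 WT eWAT libraries by housing temperature, as CPM plus 0.1 on a log axis; numbers are mouse numbers and open diamonds are RT 18 and the library labelled TN 8. The library labelled TN 8 is at 0 for Wt1 and stands alone at the top for Tbx15, Shox2, Hoxc10 and Hsd3b1, RT 18 is highest for Crisp1, and Adipoq overlaps between the groups.

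Between temperatures, genes of macrophages and of class II antigen presentation had higher levels in TN libraries, collagen genes followed by a smaller margin, and most genes of fat synthesis had lower levels. Adipocyte hormone genes overlapped between the groups. Over all 8 libraries, no single gene passed the test. Of 18933 genes, edgeR called 0 at an adjusted p under 0.05 (0.0%), and the lowest adjusted p was 0.0801. At an unadjusted p under 0.05, 750 genes were higher at TN (3.96%) and 574 were lower (3.03%). Counts within the gene lists below are to be read against these shares of all genes. The lists and their members were chosen with earlier results of these data known, so the counts describe and do not test. The 4 TN libraries lay wholly above the 4 RT libraries in 438 genes (2.31%) and wholly below in 339 (1.79%). DESeq2 called 104 genes, 80 of them higher (0.48% of the genes it gave an adjusted p). Some of those calls rested on 1 or 2 libraries: Mup22 held 0.0272, 125, 0 and 9.98 CPM at RT and 0, 0, 0 and 0 CPM at TN.

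Without the library labelled TN 8, edgeR called 13 genes, 12 of them higher at TN (0.0611% of those tested). They are Cybb, Csf1r, Ms4a7, Laptm5, Tnfrsf1b, Ifi30, H2-Aa, C1qb, Lrrc25, Pld4, Clec12a and H2-Eb1. Of these, Csf1r, Ms4a7 and C1qb belong to the macrophage list and H2-Aa and H2-Eb1 to the antigen presentation list, and the other 7 belong to no list. The gene called lower was Pygl. Leaving out RT 18 as well, a choice made after seeing the data, gave 51 calls, 45 higher (0.232%) and 6 lower, and 12 of the 13 were among them. Of the 45, 9 are members of the macrophage list and 1 of the lipid-associated macrophage list, and they include Spi1, the transcription factor that directs myeloid development, the integrin chain Itgb2, the pore-forming protein Mpeg1 and the protease Ctss. Past the unadjusted threshold were 3.85% of genes higher and 3.28% lower without the library labelled TN 8, and 4.44% higher and 3.92% lower without both. Leaving out any other single library gave 0 calls, except TN 23, without which 2 genes were called lower, Sp110 and Sp140.

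**Figure D2:**
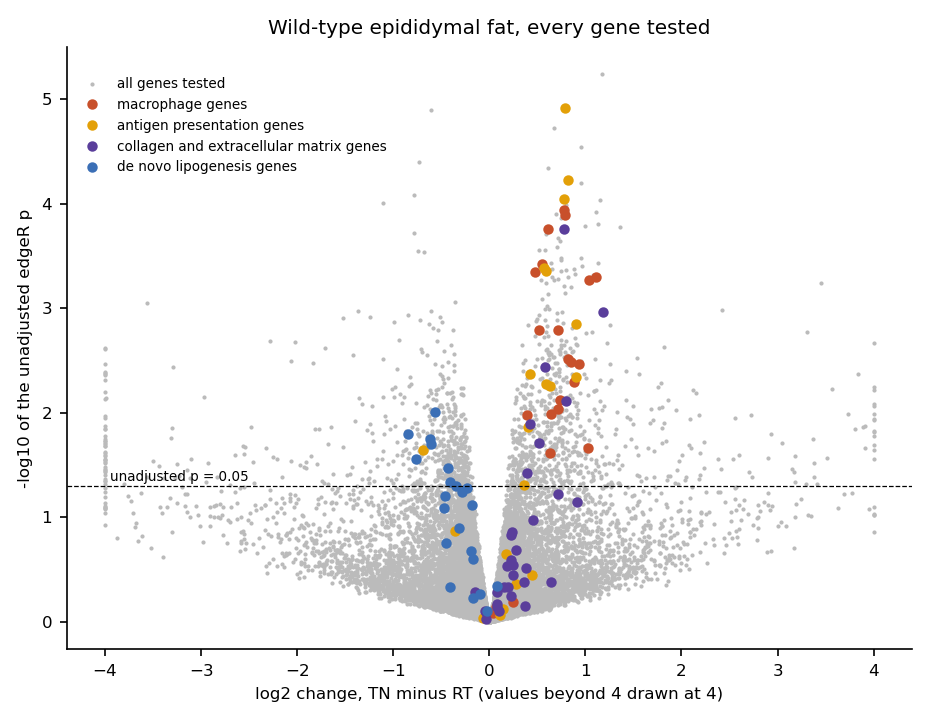
Every gene tested in WT eWAT, with the log2 change TN minus RT on the x axis and -log10 of the unadjusted edgeR p on the y axis; coloured points are members of 4 gene lists. Macrophage and antigen presentation genes lie to the right, mostly above the dashed line of the unadjusted threshold, and lipogenesis genes lie to the left.

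The 5 genes of lowest p in each direction, among genes that have a symbol and average 1 CPM or more, had levels that did not overlap between temperatures. Lrrc25, a membrane protein of myeloid cells, held 5.95, 6.27, 7.00 and 8.10 CPM at RT and 15.7, 16.5, 12.6 and 16.8 CPM at TN. Every TN library was above every RT library, and the library labelled TN 8 was the lowest of the 4. The means were 6.83 ± 0.952 CPM at RT and 15.4 ± 1.93 CPM at TN (SD, n = 4 each), a log2 change of 1.17 (SE 0.19, 95% interval 0.78 to 1.56, edgeR adjusted p = 0.0801). Without the library labelled TN 8 the adjusted p was 0.0249, and over all alternatives it ran from 2.49e-06 to 0.309.

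H2-Eb1, the beta chain of the class II molecule that shows peptides to CD4 T cells, held 242, 259.9, 269 and 253 CPM at RT and 531, 512, 351 and 379 CPM at TN. The RT libraries were close together and the TN libraries lay above them, TN 6 and 7 highest. This was a log2 change of 0.79 (SE 0.13, 95% interval 0.51 to 1.07, edgeR adjusted p = 0.0801), with 0.0225 without the library labelled TN 8 and a range of 1.41e-05 to 0.406 over the alternatives. Pld4, an exonuclease of the endolysosome, held 25.6, 29.7, 30.6 and 27.6 CPM at RT and 52.9, 49.3, 37.3 and 41.9 CPM at TN. TN 6 and 7 were again the highest and no RT library reached the TN range, a log2 change of 0.68 (SE 0.12, 95% interval 0.43 to 0.92, edgeR adjusted p = 0.0888).

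The other 2 of the 5 belong to stroma and membrane. Bgn, the matrix proteoglycan biglycan, held 260.5, 233, 220.0 and 223 CPM at RT and 374, 449, 579 and 409.6 CPM at TN. Here the library labelled TN 8 was the highest of the 4, and the log2 change was 0.95 (SE 0.17, edgeR adjusted p = 0.109). Emp3, a membrane protein of the PMP22 family, held 23.1, 24.4, 26.4 and 25.5 CPM at RT and 45.3, 35.0, 35.6 and 35.3 CPM at TN, a log2 change of 0.61 (SE 0.11, edgeR adjusted p = 0.124).

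Among the genes lower at TN, Pygl, the liver-type glycogen phosphorylase that frees glucose units from glycogen, held 209.8, 176, 165 and 179.7 CPM at RT and 114, 113, 129 and 125 CPM at TN. All TN libraries were below all RT libraries, and the library labelled TN 8 was the highest of the TN libraries. The means were 183 ± 19.1 CPM at RT and 120.0 ± 7.95 CPM at TN (SD, n = 4 each), a log2 change of -0.61 (SE 0.10, 95% interval -0.82 to -0.39, edgeR adjusted p = 0.0801). Without the library labelled TN 8 the adjusted p was 0.044, and without RT 18 as well it was 0.033, within a range of 1.41e-05 to 0.406.

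Rcl1, which acts in ribosomal RNA processing, held 30.6, 32.0, 37.0 and 35.8 CPM at RT and 19.3, 19.0, 19.0 and 24.4 CPM at TN, a log2 change of -0.73 (SE 0.13, edgeR adjusted p = 0.124). Scai, a repressor of the MRTF-SRF transcription pathway, held 23.1, 23.1, 17.9 and 16.9 CPM at RT and 12.3, 10.5, 13.5 and 10.7 CPM at TN, a log2 change of -0.78 (SE 0.15, edgeR adjusted p = 0.135). Ucp3, a mitochondrial carrier related to Ucp1, held 76.4, 59.8, 60.9 and 54.3 CPM at RT and 35.8, 34.8, 36.6 and 38.5 CPM at TN, a log2 change of -0.79 (SE 0.17, edgeR adjusted p = 0.142). For all of these genes the TN libraries lay below the RT libraries without overlap. Clstn3, whose locus also yields an adipocyte form that acts at lipid droplets, held 47.1, 64.6, 33.4 and 61.0 CPM at RT and 19.6, 26.5, 18.3 and 31.7 CPM at TN, a log2 change of -1.10 (SE 0.22, edgeR adjusted p = 0.135). The strand setting of the counting is not given, so reads of overlapping genes at this locus cannot be told apart.

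**Figure D3:**
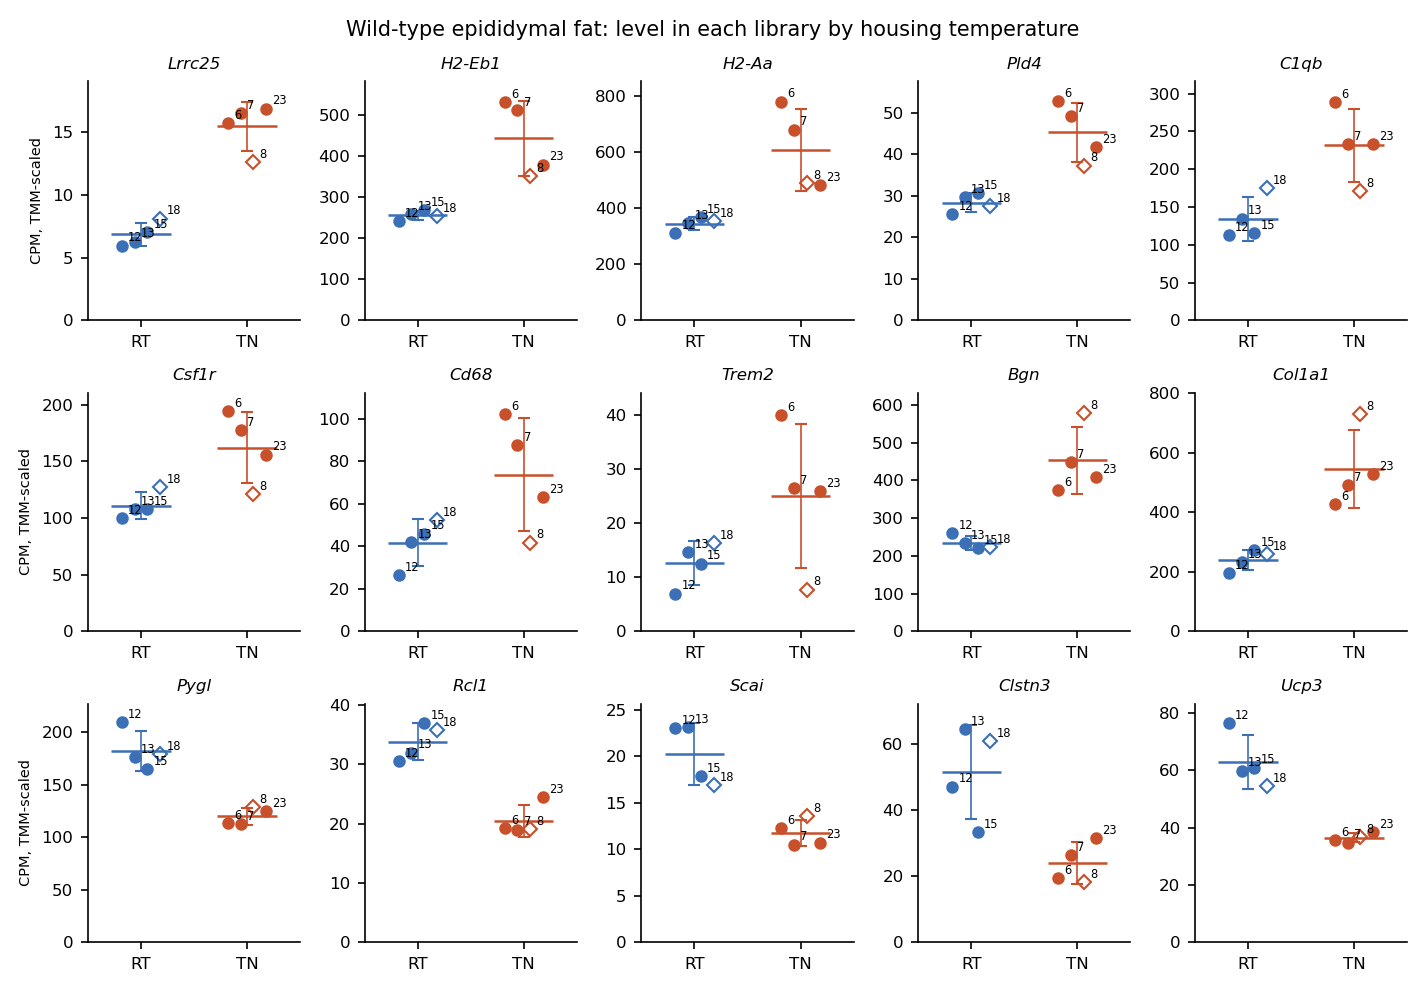
TMM-scaled CPM of 15 genes in each WT eWAT library by housing temperature; points carry mouse numbers, open diamonds are RT 18 and the library labelled TN 8, and lines and bars are the mean ± SD of 4 libraries. For C1qb, Csf1r, Cd68 and Trem2 the library labelled TN 8 lies among or next to the RT libraries, and TN 6 is the highest.

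Macrophage genes had the largest share past the unadjusted threshold among the 27 lists, whose members were chosen with earlier results of these data known. Of 22 tested, 0 passed the adjusted threshold, 19 were higher with an unadjusted p under 0.05 (17 to 19 with 1 library left out) against 3.96% of all genes, and 22 had a positive log2 change. The median log2 change was 0.71, against -0.01 over all genes tested. The TN and RT libraries did not overlap in 6 of the 22. DESeq2 called 10 of them higher. Leaving out the library labelled TN 8, the median was 0.78 and edgeR called 3, and without RT 18 as well it was 0.84 and edgeR called 9.

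The complement C1q chains, made in fat mainly by macrophages, were all higher at TN. C1qb held 113, 135, 115 and 175 CPM at RT and 289, 234, 171 and 233 CPM at TN. TN 6 was highest, RT 18 was the highest of its group, and the library labelled TN 8 lay just below RT 18, so that the groups overlapped by these 2 libraries. The log2 change was 0.78 (SE 0.16, edgeR adjusted p = 0.135), and C1qa and C1qc had 0.78 and 0.61. C1qb was called without the library labelled TN 8, with an adjusted p of 0.044 (range over the alternatives 0.00263 to 0.564).

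Csf1r, the receptor for the growth factor on which macrophages depend, held 99.9, 108, 108 and 127 CPM at RT and 194, 177, 121 and 156 CPM at TN. The overlap came again from RT 18 and the library labelled TN 8, and the log2 change was 0.55 (SE 0.13, edgeR adjusted p = 0.178). Cd68, a lysosomal glycoprotein of macrophages, held 26.6, 42.1, 45.9 and 52.3 CPM at RT and 102, 87.7, 41.7 and 63.3 CPM at TN, a log2 change of 0.82 (SE 0.24, edgeR adjusted p = 0.367). Mrc1, the mannose receptor, held 106, 110.1, 112 and 140.4 CPM at RT and 184, 166, 155 and 144 CPM at TN. Here the groups did not overlap, with a log2 change of 0.47 (SE 0.11, edgeR adjusted p = 0.178). The lysozyme gene Lyz2, the Fc receptor gene Fcgr1 and Ms4a7 had log2 changes of 0.71, 1.04 and 1.11.

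The 3 members with no unadjusted p under 0.05 are Cd163, Lyve1 and Timd4. Other members known, like these, from tissue-resident macrophages did pass that threshold: Mrc1, above, Folr2 with a log2 change of 0.63, Cd209f with 0.73 and F13a1 with 0.40. Cd163, the haemoglobin scavenger receptor, held 50.4, 77.5, 53.4 and 53.8 CPM at RT and 60.6, 69.4, 65.2 and 46.9 CPM at TN, a log2 change of 0.04 (SE 0.19, 95% interval -0.36 to 0.44, edgeR adjusted p = 0.993). Lyve1, which lymphatic vessels also express, held 22.5, 36.6, 22.2 and 31.5 CPM at RT and 27.5, 25.5, 41.5 and 23.8 CPM at TN, a log2 change of 0.07 (SE 0.19, edgeR adjusted p = 0.993). Timd4, a receptor for dying cells, held 2.34, 1.94, 1.80 and 2.41 CPM at RT and 2.33, 0.418, 5.26 and 2.03 CPM at TN, a log2 change of 0.24 (SE 0.53, edgeR adjusted p = 0.993). In these genes the groups overlapped. These genes were singled out after their values were seen.

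Lipid-associated macrophages, which take up lipid around dying adipocytes, were read from 20 genes. Of these 6 were higher with an unadjusted p under 0.05 (3 to 8 with 1 library left out) and 0 lower, and the median was 0.57, or 0.93 without the library labelled TN 8 and RT 18. Trem2, the lipid receptor that defines these cells, held 6.99, 14.6, 12.5 and 16.4 CPM at RT and 40.0, 26.5, 7.72 and 25.9 CPM at TN. The library labelled TN 8 lay with the RT libraries, and the other TN libraries lay above all 4 of them. The log2 change was 0.99 (SE 0.37, edgeR adjusted p = 0.571). Ctsk, a collagen-cleaving protease of macrophages and fibroblasts, held 20.7, 24.7, 27.0 and 35.1 CPM at RT and 50.7, 50.4, 61.6 and 52.0 CPM at TN, without overlap, a log2 change of 1.00 (SE 0.21, edgeR adjusted p = 0.139). Itgax and Spp1 overlapped widely, with log2 changes of 0.42 and 0.93. These depended on single libraries: Itgax ran from 0.15 without TN 6 to 0.63 without the library labelled TN 8, and Spp1 from 0.54 without RT 12 to 1.87 without RT 18. Without both RT 18 and the library labelled TN 8 they were 0.82 and 2.17.

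Antigen presentation genes came next. Of 20 tested, 12 were higher and 1 lower with an unadjusted p under 0.05, where 3.96% and 3.03% of all genes were. The first count was 10 to 12 with 1 library left out. In 7 of the 20 all TN libraries lay above all RT libraries (2.31% of all genes), and the median was 0.43. H2-Aa, the alpha chain of another class II molecule, held 312, 347, 369 and 354 CPM at RT and 781, 681, 491 and 482 CPM at TN. The log2 change was 0.82 (SE 0.16, edgeR adjusted p = 0.134), and it was called without the library labelled TN 8 (adjusted p 0.044, range over the alternatives 0.000433 to 0.497). Its partner H2-Ab1 and the invariant chain gene Cd74 had log2 changes of 0.77 and 0.59, both without overlap. Ciita, the coactivator that switches class II genes on, held 10.3, 13.0, 10.1 and 13.9 CPM at RT and 32.4, 25.0, 12.8 and 18.1 CPM at TN, with only the library labelled TN 8 inside the RT range, a log2 change of 0.90 (SE 0.24, edgeR adjusted p = 0.297). The member that was lower is Itgae, an integrin of dendritic and T cells, at 9.11, 6.97, 5.05 and 5.22 CPM at RT and 3.69, 3.45, 4.06 and 5.17 CPM at TN, a log2 change of -0.69 (SE 0.28, edgeR adjusted p = 0.606). The H2 genes are alike in sequence and vary between strains, so their split of shared reads is uncertain.

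Promoters of H2-Aa and H2-Eb1 are shown because both genes were higher in every TN library and class II promoters share a known layout, an X box followed by a CCAAT-type Y box. The 250 bases before the annotated start are given from RefSeq (GRCm38.p6), with matches to CCAAT and to TGACGTCA, the cAMP-response motif that the X box can hold, in capitals on either strand (ATTGG is CCAAT read on the other strand).
H2-Aa, chr17:34287824-34288073, minus strand: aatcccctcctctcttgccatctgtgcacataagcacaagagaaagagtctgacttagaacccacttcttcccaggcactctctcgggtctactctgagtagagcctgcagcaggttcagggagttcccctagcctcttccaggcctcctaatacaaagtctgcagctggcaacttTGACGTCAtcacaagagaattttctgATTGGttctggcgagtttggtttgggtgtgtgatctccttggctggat
H2-Eb1, chr17:34305617-34305866, plus strand: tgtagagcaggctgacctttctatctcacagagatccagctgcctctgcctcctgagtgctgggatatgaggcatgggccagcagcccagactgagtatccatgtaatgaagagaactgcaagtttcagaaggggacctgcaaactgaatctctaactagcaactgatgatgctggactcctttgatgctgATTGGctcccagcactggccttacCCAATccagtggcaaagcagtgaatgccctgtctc
In H2-Aa a TGACGTCA match begins 74 bases and a CCAAT match 48 bases before the start. In H2-Eb1, CCAAT matches begin 59 and 35 bases before the start, and TGACGTCA was not found in this window. Of 32851 promoter windows of this length in the table, 33.8% held CCAAT, 1.55% held TGACGTCA and 0.527% held both.

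Other immune genes spread more widely between libraries. Of 20 T and NK cell genes tested, 6 were higher (4 to 7 with 1 library left out) and 0 were lower by the unadjusted threshold, where 3.96% of all genes were higher, and the median was 1.04, the largest of the 27 lists. Their levels were low. Cd8a, the co-receptor of cytotoxic T cells, held 0.924, 0.444, 0.601 and 0.176 CPM at RT and 1.78, 2.37, 2.69 and 4.74 CPM at TN. The TN libraries, the library labelled TN 8 included, were all above the RT libraries, a log2 change of 2.42 (SE 0.62, edgeR adjusted p = 0.279). Foxp3, which defines regulatory T cells, and Cd4 had log2 changes of 1.70 and 1.47, and Cd3e had 1.12, all with overlap.

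Of 29 cytokine and chemokine genes tested, 8 were higher (8 to 11 with 1 library left out) and 0 were lower by the unadjusted threshold (median 0.63). The T cell chemokine gene Ccl5 held 2.42, 3.00, 4.63 and 4.61 CPM at RT and 10.3, 6.58, 7.78 and 9.58 CPM at TN, without overlap, a log2 change of 1.22 (SE 0.34, edgeR adjusted p = 0.349). The macrophage chemokine gene Ccl9 held 56.8, 80.4, 80.2 and 129 CPM at RT and 239, 158, 129 and 116 CPM at TN, with RT 18 above TN 23, a log2 change of 0.89 (SE 0.24, edgeR adjusted p = 0.339). Ccl2, the main attractant of monocytes, held 11.9, 11.1, 10.5 and 23.7 CPM at RT and 17.8, 16.5, 16.3 and 22.4 CPM at TN, a log2 change of 0.35 (SE 0.34, edgeR adjusted p = 0.958), with RT 18 the highest of all. Its log2 change was 0.71 without RT 18 and 0.76 without the library labelled TN 8 as well. Of 22 interferon-stimulated genes, 6 were higher (3 to 7 with 1 library left out) and 0 lower (median 0.40). Of 17 B cell and lymph node genes tested, 1 was higher and 0 lower. The B cell and lymph node marker sum was 4.23 to 23.3 CPM at RT and 2.69 to 50.4 CPM at TN, and its part in the T cell values was not tested.

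Extracellular matrix genes came after the immune lists. Of 32 tested, 7 were higher (5 to 8 with 1 library left out) and 0 were lower by the unadjusted threshold, where 3.96% of all genes were higher, 28 had a positive log2 change, and the median was 0.25. Col1a1, a chain of type I collagen, held 196, 232, 272 and 259 CPM at RT and 427, 490.0, 729.8 and 529 CPM at TN. The TN libraries lay above the RT libraries without overlap, the library labelled TN 8 highest, and the log2 change was 1.18 (SE 0.29, edgeR adjusted p = 0.281). Col1a2 held 266, 316, 362 and 337 CPM at RT and 485, 500.1, 649 and 565 CPM at TN, likewise without overlap, a log2 change of 0.78 (SE 0.17, edgeR adjusted p = 0.139). Col3a1 and Sparc, a collagen-binding protein, had 0.58 and 0.39, both without overlap, and Col3a1 had 0.36 without the library labelled TN 8, its highest library, while Postn, a matrix protein of active fibroblasts, had 0.08.

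For several stromal genes the value leaned on the library labelled TN 8. Mmp2, a gelatinase of fibroblasts, held 28.9, 28, 37.5 and 38.0 CPM at RT and 59.4, 59.5, 126 and 45.5 CPM at TN, a log2 change of 1.13 with it and 0.73 without it. Mmp3, a stromal protease, held 0.761, 1.17, 1.38 and 1.12 CPM at RT and 4.14, 6.06, 37.1 and 1.05 CPM at TN, with 3.45 and 1.76. Of 24 progenitor and stromal genes, 5 were higher (3 to 9 with 1 library left out) and 0 lower, but the median of 0.25 was 0.02 without the library labelled TN 8. The matrix median was 0.29 without it, and 8 of 32 genes were then higher at an unadjusted p under 0.05.

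**Figure D4:**
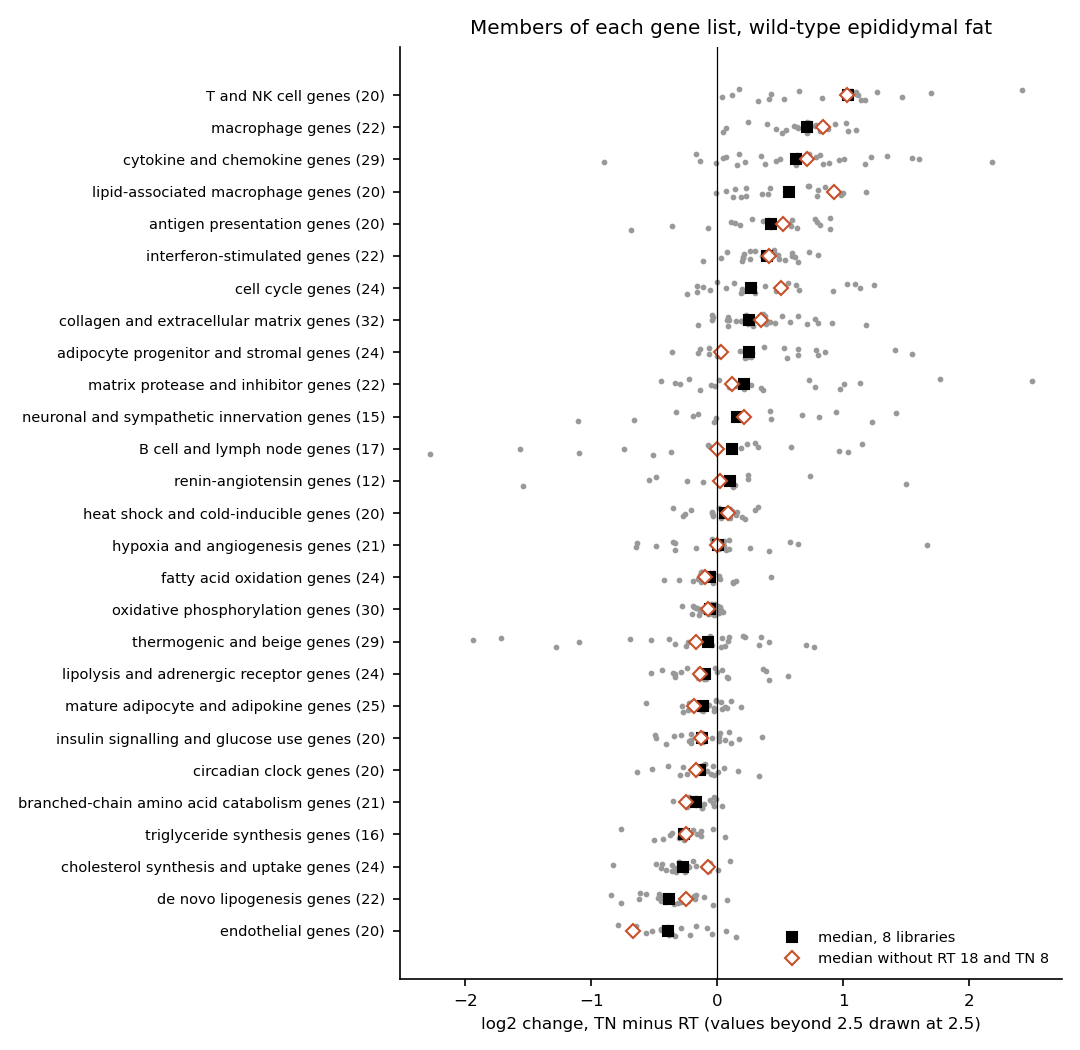
Log2 change TN minus RT for every tested member of 27 gene lists (grey points, number tested in brackets), with the list's median over 8 libraries (black squares) and without RT 18 and the library labelled TN 8 (open diamonds). T and NK cell, macrophage and cytokine genes lie at the top with medians of 1.04, 0.71 and 0.63, B cell genes lie lower at 0.12, and lipogenesis and endothelial genes at the bottom with medians of -0.38 and -0.39.

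Genes of fat synthesis had mostly negative log2 changes. Of 22 de novo lipogenesis genes, 8 were lower and 0 higher at an unadjusted p under 0.05 against 3.03% of all genes lower, 1 had a positive log2 change, and the median was -0.38. Fasn, the synthase that builds palmitate, held 6450.5, 3903, 3666 and 5240.5 CPM at RT and 3121, 3069, 2131 and 4200.3 CPM at TN. TN 23 lay within the RT range and the other TN libraries below it, a log2 change of -0.62 (SE 0.24, edgeR adjusted p = 0.571). Thrsp, a regulator of lipogenesis, held 1751, 1158, 734 and 829 CPM at RT and 583, 504, 386 and 1018 CPM at TN, a log2 change of -0.84 (SE 0.31, edgeR adjusted p = 0.548). Pnpla3, a lipid droplet acyl hydrolase regulated with lipogenesis, held 313, 222, 156 and 197 CPM at RT and 139, 142, 154 and 166 CPM at TN, a log2 change of -0.56 (SE 0.19, edgeR adjusted p = 0.497). This count rested on single libraries. It was 1 without RT 12, 2 without the library labelled TN 8 (median -0.31), 4 without TN 6, and 5 without RT 18 or without TN 7. Without both RT 18 and the library labelled TN 8 it was 4 (median -0.25).

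Of the carbohydrate-sensing and supply genes in that list, Mlxipl, the transcription factor ChREBP, had a log2 change of -0.76 (SE 0.31, edgeR adjusted p = 0.623), and Acacb, which makes the malonyl-CoA that restrains fatty acid oxidation, had -0.61 (SE 0.24, edgeR adjusted p = 0.582). Scd1, the desaturase of abundant fatty acids, held 77300.4, 71096, 76815 and 72198 CPM at RT and 65008, 66052, 65549 and 68583 CPM at TN. Its groups did not overlap, although the log2 change was -0.17 (SE 0.14, edgeR adjusted p = 0.941). Of 16 triglyceride synthesis genes, 6 were lower, where 3.03% of all genes were, and 0 higher (median -0.26), among them Lpin1 and Dgat1 with -0.43 and -0.30. That count was 0 without the library labelled TN 8 (median -0.23), 1 without RT 18 as well (median -0.25), and 3 without any 1 of RT 12, RT 13, RT 15, TN 6 or TN 7. Of 24 cholesterol genes, 3 were lower (0 to 8 with 1 library left out) and 0 higher (median -0.27, and -0.07 without RT 18 and the library labelled TN 8), among them the squalene and lanosterol synthase genes Fdft1 and Lss with -0.36 and -0.48.

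Of 25 mature adipocyte and adipokine genes, 0 were higher and 1 were lower by the unadjusted threshold (median -0.11). Adipoq, the adipokine adiponectin, held 3379, 3274, 4043 and 2752 CPM at RT and 3065, 3309, 3682 and 3177 CPM at TN, a log2 change of -0.02 (SE 0.19, 95% interval -0.43 to 0.39, edgeR adjusted p = 0.993). Lep, the satiety hormone leptin, held 3113, 3448, 3276 and 4339 CPM at RT and 3957, 3650.4, 3583 and 4118 CPM at TN, a log2 change of 0.11 (SE 0.19, 95% interval -0.28 to 0.50, edgeR adjusted p = 0.99). The groups overlapped for both. The mature adipocyte marker sum was 26522 to 31219.6 CPM at RT and 28299.7 to 30792 CPM at TN, while the macrophage marker sum was 1016 to 1411 CPM at RT and 1583 to 2539 CPM at TN. Of 20 insulin signalling and glucose use genes, 4 were lower (2 to 5 with 1 library left out) and 0 higher, including the hexokinase gene Hk2 at 147, 155, 179 and 151 CPM at RT and 109, 127, 111 and 129 CPM at TN, without overlap, a log2 change of -0.41 (SE 0.13, edgeR adjusted p = 0.447).

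Thermogenic genes were low in this depot and scattered. Of 29 tested, 0 reached an unadjusted p under 0.05 in either direction (median -0.07), and without the library labelled TN 8, 1 was higher and 4 lower (median -0.24). Ucp1, the uncoupling protein of brown and beige adipocytes, held 0.816, 0.5, 1.08 and 2.29 CPM at RT and 0.111, 0, 0.252 and 0.850 CPM at TN, a log2 change of -1.94 (SE 1.11, 95% interval -4.27 to 0.39, edgeR adjusted p = 0.812). It ran from -3.21 without TN 23 to -1.39 without RT 18, and was -1.86 without the library labelled TN 8. Prdm16, a factor of beige adipocytes, held 6.39, 7.91, 11.1 and 6.78 CPM at RT and 4.36, 5.54, 18.5 and 4.61 CPM at TN; the library labelled TN 8 was the highest, and the log2 change was 0.04 with it and -0.73 without it. Of 24 fatty acid oxidation genes 0 were higher or lower by that measure (median -0.06), and of 30 oxidative phosphorylation genes 1 was lower.

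Endothelial genes had mostly negative log2 changes. Of 20 tested, 0 had an unadjusted p under 0.05, 2 had a positive log2 change, and the median was -0.39. Without the library labelled TN 8, 3 were lower and 0 higher at that threshold (median -0.51), and without RT 18 as well 9 were lower and 0 higher (median -0.67), where 3.92% of all genes were lower. Of 24 cell cycle genes, 5 were higher (1 to 6 with 1 library left out) and 0 lower (median 0.27, and 0.51 without RT 18 and the library labelled TN 8), among them Mki67 and Top2a with 0.63 and 0.65. Of 20 circadian clock genes 0 were higher or lower.

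Agt, the precursor of angiotensin peptides, held 96.4, 81.1, 126 and 65.9 CPM at RT and 58.9, 62.1, 8.98 and 134 CPM at TN in WT eWAT. The library labelled TN 8 was far below the others, TN 23 was the highest, and the log2 change was -0.49 (SE 0.53, edgeR adjusted p = 0.971) with it and -0.12 without it. It was -0.30 without RT 15 and -1.09 without TN 23. The deletion in KO mice is in hepatocytes, so Agt in fat does not check the labels. Of 12 renin-angiotensin genes tested, 2 were higher and 1 lower. Anpep and Cma1, peptidases that act on angiotensins, had log2 changes of 0.74 and 1.5, Enpep had -0.54 (-0.32 without the library labelled TN 8) and Ace 0.15. Cma1, a mast cell protease, stood at 27.3 CPM in the library labelled TN 8 and at most 6.65 CPM in the others, and its log2 change without that library was 0.59.

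The same contrast in KO eWAT gave 330 called genes by edgeR, 194 higher (1.02%) and 136 lower (0.718%). The difference between genotypes was tested as an interaction, and edgeR called 0 of 18933 genes (0.0%), with 1439 at an unadjusted p under 0.05, while DESeq2 called 10. A gene called in KO and not in WT is therefore not shown to differ between them. Csf1r rose in KO by 0.67 (SE 0.13, edgeR adjusted p = 0.0212) on the log2 scale and Mrc1 by 0.63 (SE 0.11, edgeR adjusted p = 0.0184). Cd163 and Lyve1 rose in KO by 0.88 (SE 0.19, edgeR adjusted p = 0.031) and 0.93 (SE 0.19, edgeR adjusted p = 0.0266), with interactions, WT minus KO, of -0.84 (SE 0.27, edgeR adjusted p = 0.565) and -0.86 (SE 0.27, edgeR adjusted p = 0.564). Lep rose in KO by 0.99 (SE 0.19, edgeR adjusted p = 0.0212), with an interaction of -0.88 (SE 0.26, edgeR adjusted p = 0.553). The 4 KO RT libraries held 1038 to 1359.7 CPM of Lep and the 4 KO TN libraries 1365 to 3040.4 CPM. Of the 45 genes called higher in WT without the library labelled TN 8 and RT 18, 45 had a positive change in KO and 5 were called there. Over all genes the median KO log2 change was 0.02 and 1.02% were called higher. The 45 came from a choice of libraries made after seeing the data, so this count describes and does not test. Of the 32 matrix genes, 10 were called higher in KO, among them Col1a1 at 1.33 (SE 0.29, edgeR adjusted p = 0.0388) and Col1a2 at 1.15 (SE 0.17, edgeR adjusted p = 0.0129). Of 30 oxidative phosphorylation genes, 10 were called lower in KO (median -0.47, against -0.06 in WT), and 15 of the 30 had an unadjusted interaction p under 0.05, with 0 called. T and NK cell genes had a median of -0.12 in KO against 1.04 in WT, with 0 called in KO. Of the 20, 3 had an unadjusted interaction p under 0.05 and 0 were called. Both list counts are to be read against the 1439 of 18933 genes past that threshold. The low levels of the T and NK cell genes limit this comparison, and the genotypes are not shown to differ in them.

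The KO count of 330 rested on single libraries. It was 0 without KO TN 3, 18 without KO RT 19, 63 without KO RT 10, 63 without KO TN 4 and 91 without KO TN 21, and it was 554 without KO TN 5 and 642 without KO RT 16.

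The temperature effect in WT eWAT was then set against that in brown fat, the main heat-producing tissue. In a fit over 16 WT libraries of the 2 depots, the temperature effect differed between eWAT and BAT in 3109 of 18680 genes by edgeR, 1681 with the higher value in eWAT (9.0%) and 1428 with the lower (7.64%). With the mouse number as a replicate block the count was 1675, 801 and 874. That fit compares the depots only within mice sampled in both, 12, 15 and 18 at RT and 6 and 7 at TN. Its counts therefore differ in the libraries that inform them as well as in pairing, and the library labelled TN 8 does not inform them. Without a block, the count was 2654 when the library labelled TN 8 was left out. Of 22 lipogenesis genes, 16 had the higher value in eWAT and 2 the lower, with a median change of -2.36 in BAT; with the block the numbers were 14 and 1. Of 30 oxidative phosphorylation genes, 27 had the higher value in eWAT and 0 the lower, with a median of -1.05 in BAT against -0.06 in eWAT, and with the block 9 and 0. Of 32 matrix genes, 18 had the lower value in eWAT (16 with the block), and BAT had a median of 1.56. Of 22 macrophage genes, 0 were called as differing between depots (1 with the block), with medians of 1.2 in BAT and 0.71 in eWAT. The median difference, eWAT minus BAT, was -0.59, against -0.14 over all genes tested. A gene not called here is not shown to change alike in the 2 depots.

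The 5 genes of lowest p in this comparison were Acsl5, Pdk1, Echdc1, Pcyt2 and Crip2. Acsl5, which activates long-chain fatty acids, held 81.9, 90.3, 101 and 103 CPM at RT and 108, 102, 93.6 and 93.3 CPM at TN in eWAT and 712 ± 58.2 CPM at RT and 63.3 ± 7.17 CPM at TN (SD, n = 4 each) in BAT. The eWAT groups overlapped, and the difference between the depots' log2 changes was 3.58 (SE 0.18, edgeR adjusted p = 2.13e-09). Pdk1, a kinase that holds back pyruvate dehydrogenase, held 216 ± 10.1 CPM at RT and 60.4 ± 2.70 CPM at TN (SD, n = 4 each) in BAT and 29.0 ± 1.53 CPM at RT and 29.2 ± 1.77 CPM at TN (SD, n = 4 each) in eWAT, a difference of 1.86 (SE 0.13, edgeR adjusted p = 5.33e-07). For Echdc1, Pcyt2, an enzyme of phosphatidylethanolamine synthesis, and Crip2 the differences were 2.42 (SE 0.21, edgeR adjusted p = 6.14e-06), 2.04 (SE 0.19, edgeR adjusted p = 1.89e-05) and -2.27 (SE 0.22, edgeR adjusted p = 2.55e-05). Fasn held 20215 ± 5857 CPM at RT and 1474 ± 1297 CPM at TN (SD, n = 4 each) in BAT, a difference of 3.17 (SE 0.61, edgeR adjusted p = 0.00374). Pygl held 1345 ± 247 CPM at RT and 209 ± 109.9 CPM at TN (SD, n = 4 each) in BAT, a difference of 2.09 (SE 0.36, edgeR adjusted p = 0.00148).

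**Figure D5:**
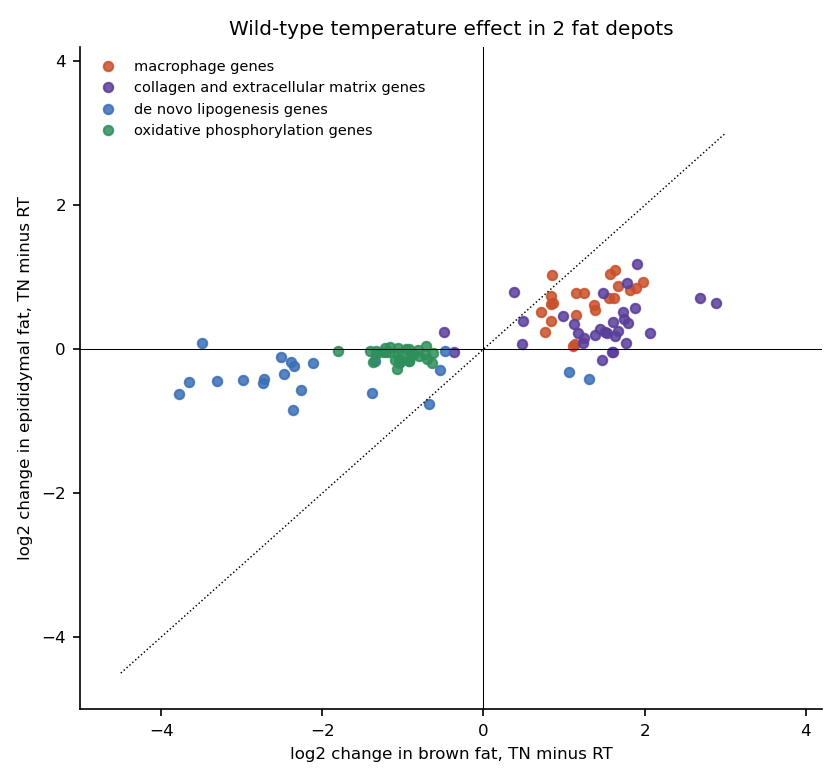
Log2 change TN minus RT in BAT (x axis) and eWAT (y axis) for members of 4 gene lists in WT mice; the dotted line marks equal change. Oxidative phosphorylation genes lie left of 0 in BAT and near 0 in eWAT, with medians of -1.05 and -0.06, and macrophage genes lie right of and above 0.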

How the data were processed

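The authors deposited raw gene counts, 1 file per library, with no normalization. Per the submitters' processing notes the tools were fastp, STAR 2.6.1d and featureCounts 1.5.0-p3 with GRCm38/mm10; the strand setting is not given in the sources used here. Of 56748 gene IDs, 52073 (91.8%) had a symbol, and named genes held at least 94.8% of each library's counts; 1 list gene was not matched. Counts of the 16 eWAT libraries of both genotypes were filtered with filterByExpr (minimum count 10), TMM-scaled and fitted together with edgeR 4.0.16 (quasi-likelihood test, limma 3.58.1, R 4.3.3), so the WT comparison shares its estimate of spread with KO. P-values were Benjamini-Hochberg adjusted over all genes, threshold 0.05, and measure only the spread between these libraries. The comparison with BAT used 16 WT libraries. Only the edgeR fit of the eWAT libraries, for the WT comparison, was tested on simulated data.

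Genes named were Lep, Adipoq, Ucp1 and Agt, and list members called. Called genes of at least 1 CPM whose groups did not overlap were to be named too, and 0 genes met this in WT. From the eWAT against BAT test, the 5 called genes of lowest p were named. The genotype interaction gave 0 calls and so no genes. With no WT calls, the 5 of lowest p in each direction were named. List members are named with their lists. The members and lists were chosen with earlier results of these data known. Alternatives were other scaling (RLE), other filters, DESeq2 1.42.0, a fit of the 8 WT libraries, and leaving out libraries. Mouse numbers recur between eWAT and BAT in 5 animals, read as the same animal from the labels' numbering; the correlation of their deviations was 0.134 for mouse 12, -0.227 for 15, -0.076 for 18, 0.022 for 6 and -0.092 for 7. Liver and KO BAT libraries were not used here.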

Additional observations from a re-analysis of the deposited data

Results flagged for a closer look

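In groups of 4 libraries, a library was marked where its gap to the nearest other, as a share of the group's range, exceeded Dixon's critical value at the 95% level. Of 244 groups tested, 24 met this, where chance marks about 1 in 20 groups. The 24 include the depot and adrenal sums, Sp110 and Sp140. Those genes were chosen after their values were seen, so their marks are no test. The 24 therefore cannot be weighed against the chance share. The library labelled TN 8 was the high one for Cma1 (27.3 CPM), Col3a1 (1609 CPM), Ctsk (61.6 CPM), Prdm16 (18.5 CPM) and Mmp3 (37.1 CPM), and for the summed brown adipocyte markers (45.8 CPM), the depot genes at or near 0 in the other eWAT libraries (58.3 CPM) and the adrenal genes (157.5 CPM). RT 18 was the high one for Ms4a7 (12.4 CPM), Ifi30 (29.6 CPM), Ccl2 (23.7 CPM) and the summed epididymis markers (1106 CPM). TN 23 was the high one for Rcl1 (24.4 CPM), Sp140 (22.5 CPM) and Sp110 (11.0 CPM), and the low one for Ace (49.2 CPM), Postn (74.1 CPM) and H2-K1 (1191 CPM). RT 13 was the high one for Cd163 (77.5 CPM) and Mup22 (125.2 CPM), RT 15 for Insr (158.9 CPM) and RT 12 for Ppargc1a (4.35 CPM). TN 6 was the high one for Emp3 (45.3 CPM) and for the summed testis and sperm markers (125.1 CPM).

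The temperature effect differed between eWAT and BAT, by edgeR's test of that difference, for Acsl5 (3.58 on the log2 scale, eWAT minus BAT), Pdk1 (1.86), Echdc1 (2.42), Pcyt2 (2.04) and Crip2 (-2.27).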

How the results depend on the processing

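The WT count of 0 called genes was 1 with no filter on low counts (H2-Eb1), 104 with DESeq2, 0 to 13 when 1 library was left out and 51 without RT 18 and the library labelled TN 8, a pair chosen after seeing the data; RLE scaling, the filter at 1 CPM and the fit of the 8 WT libraries gave 0. The KO count of 330 was 1222 with DESeq2 and 0 to 642 with 1 library left out. The genotype interaction, 0, was 10 with DESeq2 and 0 to 4 with 1 library left out. The count of lipogenesis genes that were lower, 8, was 1 to 11 with 1 library left out and 4 without the pair; that of triglyceride synthesis genes, 6, was 0 to 9 and 1. The cause of these shifts was not tested. The eWAT against BAT count of 3109 was 4159 with DESeq2. With 1 library left out it ran from 2160 (without BAT TN 7) to 4607 (without BAT TN 24). It was 1675 with the mouse number as a replicate block, a fit that rests on the mice sampled in both depots. Within WT eWAT no paired analysis was possible because no mouse occurs at both temperatures.

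Of 106 genes followed through the alternatives, a set that overlaps the genes named above without matching it, 8 changed sign under some alternative. With 1 library left out, Adipoq ran from -0.10 to 0.08, Cd163 from -0.03 to 0.21, Lyve1 from -0.14 to 0.22, Pdk1 from -0.02 to 0.05, Postn from -0.03 to 0.22, Ppargc1a from -0.05 to 0.23, Prdm16 from -0.73 to 0.25 and Timd4 from -0.41 to 0.59 on the log2 scale. Without the pair, Cd163 was -0.03, Lyve1 -0.08, Ppargc1a -0.07, Prdm16 -0.81 and Timd4 -0.35. The number of libraries, 4 a group, and levels near 1 CPM for Ucp1 and T cell genes, limit the precision.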

Other observations

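A pair of neighbouring interferon-inducible nuclear body genes, Sp110 and Sp140, split the TN libraries; both were chosen after their values were seen. In eWAT of mice TN 6, 7 and the library labelled TN 8, Sp110 held 0.111, 0.349 and 0 CPM (plain library totals). The 13 other eWAT libraries of both genotypes held 3.42 to 11.7 CPM, TN 23 among them at 10.7 CPM. Sp140 held 0.637, 1.22 and 0.227 CPM in those 3 libraries and 4.13 to 21.9 CPM in the 13 others. In BAT, the libraries of mice 6 and 7 held 0 and 0 CPM of Sp110 and 0.107 and 0.137 CPM of Sp140, below the 0.198 to 3.28 CPM and 0.391 to 3.33 CPM of the 6 other WT BAT libraries. The mice low in eWAT and sampled in BAT were thus low in both depots.

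Branched-chain amino acid catabolism genes, which adipocytes use to feed fat synthesis, had 1 positive log2 change among 21 in WT eWAT, with 0 higher and 2 lower (0 to 4 with 1 library left out) past the unadjusted threshold and a median of -0.17. Without RT 18 and the library labelled TN 8, 0 were higher and 8 lower (median -0.25), where 3.92% of all genes were lower. In KO eWAT 4 were called lower (median -0.34), and the temperature effect was higher in eWAT than in BAT for 14 of the 21, or 7 with the mouse number as a block.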
